A study of Mus musculus with 4 samples.

Results

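The genes described here are 35 genes of the endoplasmic reticulum (ER) and amino acid stress responses, of 18194 genes with a value on these arrays. They were chosen by name, as 16 amino acid stress genes driven by the transcription factor Atf4 and 19 chaperone and ER quality control genes driven by Xbp1 and Atf6. The rule uses names and no threshold on a measured value, but the list was drawn up with earlier results of these data known. All 35 had at least 1 probe set that carries a single gene symbol, and each gene was read from whichever of these probe sets had the highest average level. RNA came from second-passage mammary fibroblasts of female FVB/N mice aged 16 weeks, grown in medium with serum, and 1 Affymetrix array was hybridised for each of 4 genotypes to ask what loss of *Ets2* in stromal fibroblasts alters with and without an oncogene in the neighbouring epithelium. Normal fibroblasts came from Ets2db/loxP mice and, as *Ets2* null cells, from FspCre;Ets2db/loxP mice. Tumor fibroblasts with *Ets2* came from ErbB2;Ets2db/loxP mice, and those without it from mice labelled ErbB2;Fsp-cre;Ets2db/loxP. Every mouse therefore carried 1 Ets2db allele and 1 loxP allele, so the fibroblasts called *Ets2* present here were not wild type at this locus. Cre was expressed from the fibroblast-specific *Fsp* promoter and *ErbB2* from the MMTV promoter, which is active in mammary epithelium. No genotype was replicated, so no spread between animals is known, no test was made, and each value below is that of a single array.

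Cells answer a shortage of amino acids or an overload of unfolded protein in the ER by phosphorylating the initiation factor eIF2alpha, which slows translation in general but favours that of *Atf4*. Atf4 then turns on genes for amino acid synthesis and uptake, together with *Ddit3* and *Trib3*, which act later in a lasting stress. In the other arm, Ire1 splices the *Xbp1* transcript and Atf6 is released from the ER membrane, and both factors turn on chaperones and the machinery that removes misfolded protein. Fibroblasts secrete large amounts of collagen and other matrix and depend on that machinery.

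The arms differ in the known binding sites of their regulators, and the promoter sequences that carry these sites are shown before the levels. The ER stress element, the known site of Atf6 with the factor NF-Y, was searched as CCAAT and CCACG separated by 9 bases, on both strands, from 250 bases before to 50 bases after each gene's start in RefSeq (GRCm38.p6). It lay in the promoter of 8 of the 17 chaperone genes with a promoter in that table and of 0 of the 15 amino acid genes, beside 39 of all 32851 promoters (0.119%). The 8 genes were *Hspa5*, *Hsp90b1*, *Calr*, *Canx*, *Creld2*, *Dnajc3*, *Pdia6* and *Syvn1*. The stretches printed here belong to *Hspa5* (chr2:34772013-34772055, plus strand), *Calr* (chr8:84847063-84847105, minus strand), *Creld2* (chr15:88819508-88819550, plus strand), *Syvn1* (chr19:6046520-6046562, plus strand) and *Hsp90b1* (chr10:86705521-86705668, minus strand). They are written 5′ to 3′ on the strand of the gene, with the element in capitals, and stand for the ER chaperones and for the genes with the largest differences of that arm.
Hspa5: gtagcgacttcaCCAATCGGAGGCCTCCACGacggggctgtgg
Calr: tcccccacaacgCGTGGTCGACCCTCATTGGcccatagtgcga
Creld2: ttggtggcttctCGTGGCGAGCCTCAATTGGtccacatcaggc
Syvn1: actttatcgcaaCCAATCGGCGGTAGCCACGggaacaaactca
Hsp90b1: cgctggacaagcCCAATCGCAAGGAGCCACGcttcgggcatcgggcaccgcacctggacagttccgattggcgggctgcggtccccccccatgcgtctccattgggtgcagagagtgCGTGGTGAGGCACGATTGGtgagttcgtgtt
*Hsp90b1* held 2 copies, in opposite orientation, and *Calr* and *Creld2* held the element on the other strand.

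The C/EBP-ATF element, the site at which Atf4 binds with a C/EBP partner, was searched as TGATGNAA on both strands. It lay in the promoter of 5 of 15 amino acid genes (*Asns*, *Chac1*, *Nupr1*, *Trib3* and *Vldlr*) and of 1 of 17 chaperone genes (*Herpud1*), beside 1304 of all 32851 promoters (3.97%). The copy in *Trib3* lay 14 to 21 bases after the start. The other copies lay before the start, in *Asns* (chr6:7693213-7693244, minus strand), *Chac1* (chr2:119351037-119351068, plus strand), *Nupr1* (chr7:126625561-126625592, minus strand), *Vldlr* (chr19:27216808-27216839, plus strand) and *Herpud1* (chr8:94386305-94386399, plus strand). These are the amino acid genes whose promoters carry the element in the bases before the start, followed by the 1 chaperone gene that carries it.
Asns: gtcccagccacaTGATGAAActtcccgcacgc
Chac1: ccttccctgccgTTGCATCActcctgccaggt
Nupr1: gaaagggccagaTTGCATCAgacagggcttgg
Vldlr: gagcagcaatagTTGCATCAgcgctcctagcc
Herpud1: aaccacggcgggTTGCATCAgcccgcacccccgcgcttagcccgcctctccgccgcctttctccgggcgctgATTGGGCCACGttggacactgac
*Chac1*, *Nupr1*, *Vldlr* and *Herpud1* shared the same letters, TTGCATCA, on the strand of the gene. The second stretch in capitals in *Herpud1* is the ER stress element II, searched as ATTGG and CCACG separated by 1 base, which *Dnajb11* also held and which lay in 12 of 32851 promoters (0.0365%). *Herpud1*, which helps to carry misfolded proteins to the proteasome, was thus the 1 member with an element of each arm. The unfolded protein response element, the known site of Xbp1, was searched as TGACGTGG and lay in 0 members and in 222 promoters (0.676%). *Slc7a5*, *Manf* and *Hyou1* had no promoter in the table. These are matches of letters in a fixed window and do not show that a factor binds there. Members were chosen as targets of these factors and motifs as their known sites. A larger share than among all promoters was therefore built into the choice.

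**Figure D1:**
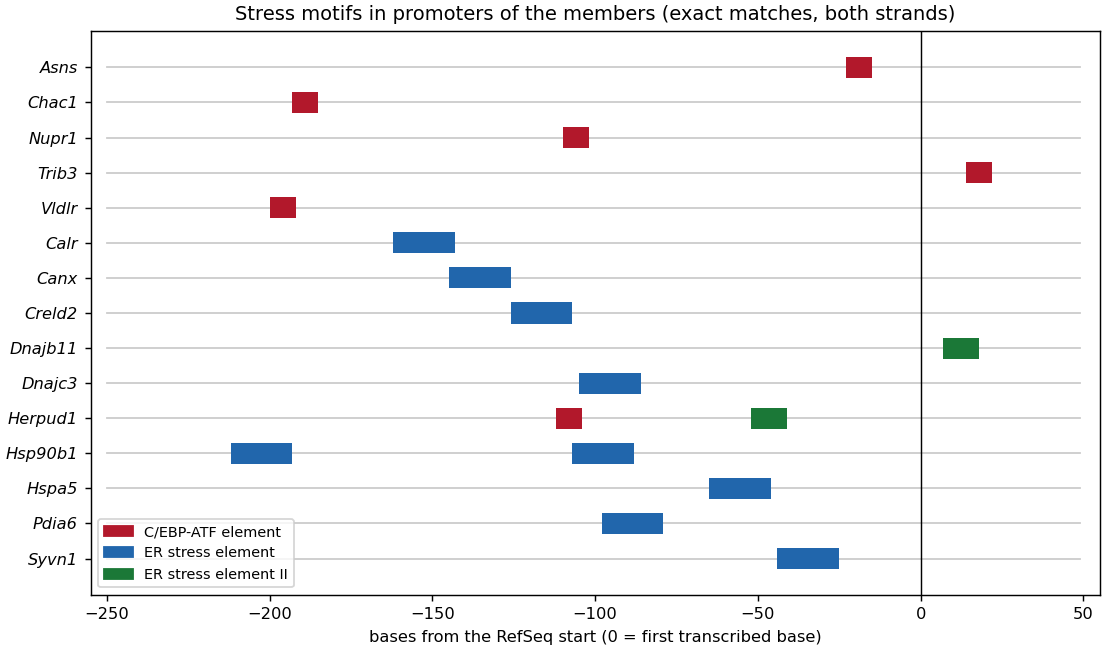
Positions of the exact motif matches in the promoters of the 15 members that held one; the x axis is the distance in bases from the RefSeq start, grey lines are the searched window, and coloured boxes are matches on either strand. The ER stress element (blue) lies in 8 chaperone promoters, the C/EBP-ATF element (red) in 5 amino acid promoters and in *Herpud1*, and the ER stress element II (green) in *Herpud1* and *Dnajb11*.

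The deposited values are log2 intensities, and the medians of the 4 arrays lay between 5.51 and 5.54. Over all genes, the robust SD of the log2 difference between arrays was between 0.213 and 0.271. *Ets2* itself gave log2 levels of 8.14 to 8.35, lowest in the normal *Ets2* present array. Whether this probe set covers the deleted exons is unknown here, so it does not check the genotype labels. Fibroblast markers were bright on every array, with 9 of 10 at log2 6 or more throughout.

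Loss of *Ets2* in normal fibroblasts went with lower levels of most stress genes, and the differences were more uneven among the amino acid genes. Of the 16 amino acid genes 14 were lower without *Ets2* (median log2 difference -0.25), and 4 of them, *Ddit3*, *Trib3*, *Shmt2* and *Stc2*, were lower by more than 1.5-fold (a log2 difference beyond 0.585). The same size was passed downward by 1.87% and upward by 2.31% of all 18194 genes, and upward by no member. Of the 19 chaperone genes 15 were lower, with a median of -0.19, and 0 passed 1.5-fold. The medians of the arms lay 0.05 apart, and -0.22 for both without the 6 genes known to answer to both arms. The median difference of all genes was -0.0026, and that of the 3111 genes whose mean was log2 9 or more, among them 30 of the 35 members, was -0.04. Of all genes 50.5%, and of these brighter genes 58.1%, were lower at all. In bulk RNA, fewer cells of a type and less RNA per cell cannot be told apart.

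**Figure D2:**
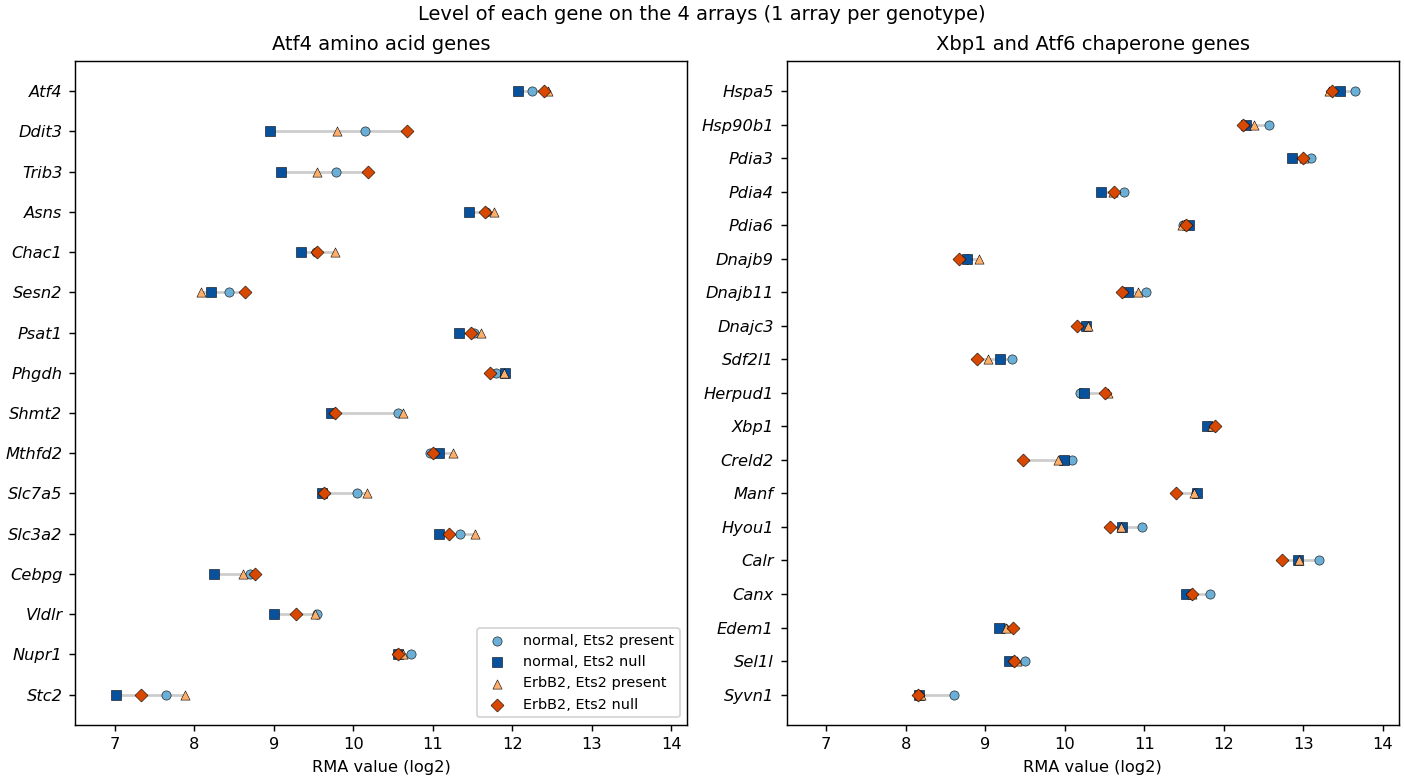
Log2 level (RMA value, x axis) of every member on the 4 arrays, with the amino acid genes on the left and the chaperone genes on the right; each symbol is 1 array and the grey line joins the lowest and the highest. *Ddit3* and *Trib3* are lowest in normal *Ets2* null and highest in *ErbB2* *Ets2* null fibroblasts, *Shmt2* and *Slc7a5* are low in both *Ets2* null arrays, and the chaperone genes span at most 0.62.

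The amino acid genes spread more over the 4 arrays than the chaperone genes. Their range from the lowest to the highest array had a median of 0.48 on the log2 scale, from 0.17 for *Nupr1* to 1.72 for *Ddit3*. The chaperone genes had a median range of 0.30, from 0.09 for *Pdia6* to 0.62 for *Creld2*, beside a median of 0.33 over all genes. The arms also differed in which array was extreme. The normal *Ets2* null array was the lowest for 13 of the 16 amino acid genes, and the *ErbB2* *Ets2* present array the highest for 9. Among the 19 chaperone genes, the normal *Ets2* present array was the highest for 12 and the *ErbB2* *Ets2* null array the lowest for 10. The matching shares over all genes were not counted, so whether these counts are particular to the arms is not known here.

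Of the regulators of the amino acid arm, *Ddit3* differed widely between arrays, and *Atf4* differed little on its brightest probe set but more on a dimmer one. *Atf4* had log2 levels of 12.25 in normal *Ets2* present, 12.07 in normal *Ets2* null, 12.45 in *ErbB2* *Ets2* present and 12.40 in *ErbB2* *Ets2* null fibroblasts on the brightest probe set. The dimmer one, whose name marks possible cross-hybridisation, differed by -1.05 and -0.71 with loss of *Ets2*. Atf4 is controlled mainly by translation, which these arrays do not measure. *Ddit3*, the transcription factor also called CHOP that is linked to cell death in unresolved ER stress, had levels of 10.14, 8.96, 9.80 and 10.67 on the same arrays. It was thus 2.28-fold lower with loss of *Ets2* in normal fibroblasts and 1.83-fold higher with loss of *Ets2* in *ErbB2* fibroblasts. *Trib3*, a pseudokinase induced by Atf4 and Ddit3 that restrains both, followed the same order of arrays, with 9.78, 9.09, 9.54 and 10.18. Its differences were 1.61-fold lower in normal and 1.56-fold higher in *ErbB2* fibroblasts. *Cebpg*, a C/EBP family partner of Atf4, had 8.69, 8.25, 8.61 and 8.76, which is again lowest in normal *Ets2* null and highest in *ErbB2* *Ets2* null fibroblasts but within 1.5-fold for each pair compared. Its other probe set, about as bright, had 8.65, 8.06, 8.84 and 8.70, so that the sign in *ErbB2* fibroblasts turned (-0.14 in place of 0.15) and the normal difference, -0.59, passed 1.5-fold. *Nupr1*, a small stress-induced nuclear protein, lay between 10.56 and 10.73.

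The enzymes of serine and folate metabolism were all lower with loss of *Ets2* in *ErbB2* fibroblasts, by unequal sizes, and differed in sign in normal fibroblasts. *Shmt2*, which transfers a carbon unit from serine to folate in mitochondria, had log2 levels of 10.56, 9.72, 10.63 and 9.76 in the same order of arrays. The *Ets2* null arrays were the low ones in both settings, by 1.79-fold in normal and 1.82-fold in *ErbB2* fibroblasts, while *ErbB2* and normal fibroblasts differed by 0.06 with and 0.04 without *Ets2*. *Mthfd2*, the next enzyme of the mitochondrial folate pathway, had 10.97, 11.08, 11.25 and 11.00, with log2 differences of 0.11 and -0.25. *Phgdh* and *Psat1*, which make serine, differed by 0.12 and -0.18 in normal and by -0.17 and -0.13 in *ErbB2* fibroblasts. *Asns*, which makes asparagine, differed by -0.21 and -0.11. On the brightest probe sets, then, *Shmt2* was the 1 enzyme beyond 1.5-fold. Other probe sets narrowed this contrast. Those of *Psat1* (-0.41 and -0.34) and *Asns* (-0.29 and -0.51) differed more. The *Shmt2* probe set whose name does not mark possible cross-hybridisation differed less (-0.58 and -0.38). *Phgdh* and *Mthfd2* had probe sets on either side of 0 in normal fibroblasts.

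*Slc7a5* and *Slc3a2* encode the light and the heavy chain of a transporter for large neutral amino acids, and both were lower in both *Ets2* null arrays. *Slc7a5* had log2 levels of 10.04, 9.60, 10.17 and 9.64, so that both *Ets2* null arrays lay below both *Ets2* present arrays, with differences of -0.44 and -0.53. *Slc3a2* had 11.34, 11.07, 11.53 and 11.21, with differences of -0.27 and -0.32. Neither chain passed 1.5-fold in a comparison.

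The remaining amino acid genes split between these patterns. *Stc2*, a secreted glycoprotein induced by stress, had 7.64, 7.02, 7.88 and 7.33 and was 1.54-fold lower with loss of *Ets2* in normal fibroblasts and 1.46-fold lower in *ErbB2* fibroblasts. *Vldlr*, a lipoprotein receptor that Atf4 also induces, had 9.54, 8.99, 9.51 and 9.27, with differences of -0.55 and -0.24. Its 4 probe sets at log2 6 or more ran from -0.55 to -0.17 in normal fibroblasts. In *ErbB2* fibroblasts they ran from -0.53 to 0.19, so the sign there is uncertain. *Sesn2*, a leucine sensor that restrains mTORC1, had 8.43, 8.20, 8.09 and 8.64. Its differences, -0.23 in normal and 0.55 in *ErbB2* fibroblasts, had the signs of *Ddit3* and *Trib3*. *Chac1*, which degrades glutathione, differed by -0.18 and -0.22.

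Among the chaperones proper, no gene passed 1.5-fold in any of the 4 comparisons on its brightest probe set, though a dimmer one of *Hspa5* did. *Hspa5* (BiP), the main Hsp70 of the ER and the usual marker of an ER stress response, had log2 levels of 13.65, 13.46, 13.33 and 13.36, highest in normal *Ets2* present fibroblasts. *Hsp90b1* (Grp94) had 12.57, 12.28, 12.38 and 12.24. *Hyou1*, the nucleotide exchange factor for Hspa5, had 10.98, 10.72, 10.71 and 10.57. All 3 were thus highest in the same array. The lectin chaperones *Calr* (13.20, 12.94, 12.94 and 12.73) and *Canx* (11.82, 11.52, 11.61 and 11.60), which hold newly made glycoproteins, were also highest there. The disulfide isomerases *Pdia3*, *Pdia4* and *Pdia6* differed by at most 0.29 between any pair of arrays, and *Pdia6* by 0.09.

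The J-proteins that work with Hspa5 gave small differences on their brightest probe sets. With loss of *Ets2* the log2 difference of *Dnajb9* was -0.00413 in normal and -0.25 in *ErbB2* fibroblasts, that of *Dnajb11* was -0.22 and -0.21, and that of *Dnajc3* was 0.01 and -0.13. The 3 dimmer probe sets of *Dnajc3* at log2 6 or more differed by -0.26, -0.84 and -0.45 in *ErbB2* fibroblasts, so the size of its difference there is uncertain. *Sdf2l1*, which binds J-proteins in the ER, had levels of 9.33, 9.19, 9.03 and 8.90, and *Creld2*, an ER protein induced by stress, had 10.10, 9.99, 9.91 and 9.48. Both followed the same order, with *ErbB2* *Ets2* null fibroblasts lowest. *Creld2* had the largest difference of this arm with loss of *Ets2* in *ErbB2* fibroblasts, -0.43, and the largest in the oncogene comparison without *Ets2*, -0.52. *Manf*, a secreted ER stress protein, had 11.65, 11.67, 11.62 and 11.40 and was also lowest on that array.

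For the quality control genes, the regulator *Xbp1* had 11.81, 11.79, 11.85 and 11.89, a range of 0.10. Xbp1 acts once its transcript is spliced, and this level does not measure splicing. *Syvn1* (Hrd1), the ubiquitin ligase of ER-associated degradation, had 8.60, 8.17, 8.20 and 8.15, where normal *Ets2* present fibroblasts stood above the other 3 arrays. Its other probe set had the same highest array, and its difference between *ErbB2* and normal fibroblasts with *Ets2*, -0.67, passed 1.5-fold. Its partner *Sel1l* had 9.50, 9.30, 9.39 and 9.36, and *Edem1*, which marks misfolded glycoproteins for removal, had 9.23, 9.17, 9.26 and 9.35. *Herpud1* went the other way from most of the arm, with 10.19, 10.24, 10.55 and 10.50, higher in both *ErbB2* arrays than in both normal arrays.

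Genes with and without an element in the promoter had overlapping differences. The 8 chaperone genes with an ER stress element had a median log2 difference of -0.23 with loss of *Ets2* in normal fibroblasts (from -0.43 to 0.08), beside -0.14 for the 9 with a promoter and no element (from -0.29 to 0.05). The 5 amino acid genes with a C/EBP-ATF element had a median of -0.21 (from -0.69 to -0.17). The 10 without one in the searched window had -0.25 (from -1.19, for *Ddit3*, to 0.12). Elements outside that window were not searched, so the genes without a match may still have one. In *ErbB2* fibroblasts the medians were -0.09 with and -0.04 without the ER stress element, and -0.11 with and -0.15 without the C/EBP-ATF element.

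With loss of *Ets2* in *ErbB2* tumor fibroblasts, *Ddit3* and *Trib3* were higher and *Shmt2* was lower by more than 1.5-fold. The other 32 members were within it on their brightest probe sets. Of all genes 2.84% passed this size upward and 5.64% downward. The median log2 difference was -0.15 for the amino acid genes, 12 of 16 of which were lower, and -0.05 for the chaperone genes, 14 of 19 of which were lower. The median of all genes was 0.04 and that of the 3111 brighter genes was -0.05. In this comparison 44.2% of all genes and 58.1% of the brighter genes were lower. The chaperone median depended on the processing, from -0.14 with the mean of all probe sets to 0 with quantile normalization.

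The *Ets2* comparisons in normal and in *ErbB2* fibroblasts share no array and can be set side by side. Lower in both were 10 of 16 amino acid genes (62.5%) and 11 of 19 chaperone genes (57.9%), beside 4329 of 18194 genes (23.8%) and 32.5% of the 3111 brighter genes. Lower in normal but higher in *ErbB2* fibroblasts were 4 amino acid genes (25%), *Ddit3*, *Trib3*, *Sesn2* and, on 1 of its probe sets only, *Cebpg*, and 4 chaperone genes (21.1%), beside 26.7% of all genes. Beyond 1.5-fold in both and in opposite directions, lower in normal and higher in *ErbB2* fibroblasts, were *Ddit3* and *Trib3* and 34 of all genes (0.187%). On the brightest probe sets, *Shmt2* was the 1 member beyond 1.5-fold and lower in both, as were 63 of all genes (0.346%). A dimmer probe set of *Stc2* (-0.99 and -0.91) also passed in both. So did the dimmer one of *Atf4* (-1.05 and -0.71), which is marked for possible cross-hybridisation. The *Shmt2* probe set not marked for cross-hybridisation (-0.58 and -0.38) passed in neither. The difference between the 2 *Ets2* differences, *ErbB2* minus normal, had a median of 0.08 for the amino acid genes, 0.06 for the chaperone genes and 0.04 for all genes.

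**Figure D3:**
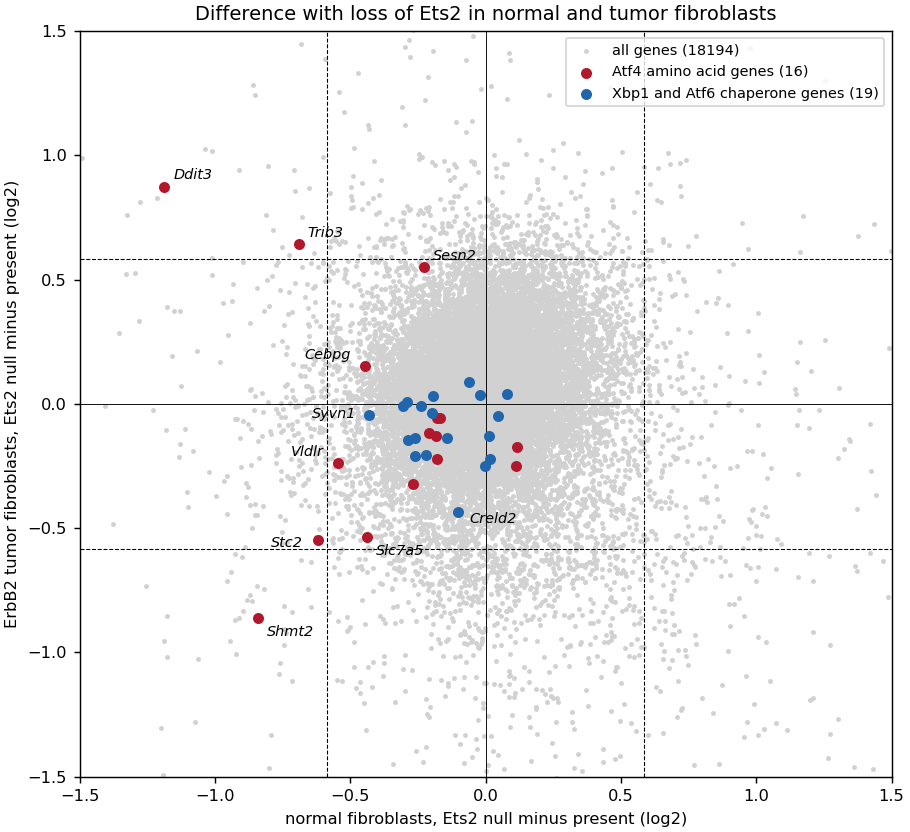
Log2 difference with loss of *Ets2*, with normal fibroblasts on the x axis, *ErbB2* tumor fibroblasts on the y axis and 1 point per gene; grey points are all genes, dashed lines mark 1.5-fold, and genes beyond 1.5 on either axis are not drawn. *Ddit3* and *Trib3* lie in the upper left corner, *Shmt2* in the lower left, and all 19 chaperone genes (blue) inside the dashed lines.

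The oncogene comparisons ask how the stress genes differ between *ErbB2* and normal fibroblasts, and they use the same 4 arrays as the *Ets2* comparisons, so they add no independent evidence. In fibroblasts with *Ets2*, no member was higher or lower by more than 1.5-fold, beside 2.91% and 1.31% of all genes. The median log2 difference was 0.10 for the amino acid genes, of which 10 of 16 were higher, and -0.10 for the chaperone genes, of which 14 of 19 were lower, beside -0.02 for all genes, 53.5% of which were lower. *Herpud1*, at 0.36, was the highest member and *Syvn1*, at -0.41, the lowest, and both act in ER-associated degradation. *Hspa5* differed by -0.32 and *Ddit3* by -0.35, while *Mthfd2*, at 0.28, was the highest amino acid gene.

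In *Ets2* null fibroblasts, *Ddit3* and *Trib3* were higher in the presence of *ErbB2*, by 3.29-fold and 2.13-fold, and no member was lower by more than 1.5-fold, beside 2.09% of all genes higher and 3.87% lower. Of the 16 amino acid genes 14 were higher, with a median of 0.20, whereas 12 of the 19 chaperone genes were lower, with a median of -0.05, beside 0.03 for all genes, 45.1% of which were lower. *Cebpg* (0.51), *Sesn2* (0.44) and *Atf4* (0.33) were the next highest of the amino acid genes. *Phgdh* (-0.19) and *Mthfd2* (-0.08) were the 2 below 0.

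The other probe sets of a gene read the same RNA and give a check of the probe, not of the animal. Of the 35 members 25 had several probe sets at log2 6 or more on all arrays, and all probe sets of a gene had the same sign for 20 of them in the normal and 18 in the *ErbB2* *Ets2* comparison. The second probe set of *Ddit3* had 8.06, 6.82, 7.50 and 8.55 in the order of arrays used above. That of *Trib3* had 9.56, 8.71, 9.26 and 9.90. Both repeated the order of the brighter probe set on every array. The second probe set of *Stc2* (6.99, 6.001, 7.30 and 6.38) was also lowest in normal *Ets2* null fibroblasts. Its differences, -0.99 in normal and -0.91 in *ErbB2* fibroblasts, passed 1.5-fold in both. For *Shmt2*, the probe set whose name does not mark possible cross-hybridisation had 10.20, 9.62, 10.14 and 9.76, with differences of -0.58 and -0.38, which keep the direction but not the size of 1.5-fold. The dimmer probe set of *Atf4* did not repeat the flat pattern of the brighter one, with 9.79, 8.74, 9.58 and 8.87 and differences of -1.05 and -0.71. Its name marks possible cross-hybridisation, and that of the brighter one does not. The level of *Atf4* RNA with loss of *Ets2* is therefore uncertain. A dimmer probe set of *Hspa5* had 12.12, 11.45, 11.82 and 11.52, where the normal difference is -0.67 in place of -0.19. In *ErbB2* fibroblasts the probe sets of *Hspa5* differed in sign, with 0.03 for the brightest and -0.30 and 0.20 for the others.

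**Figure D4:**
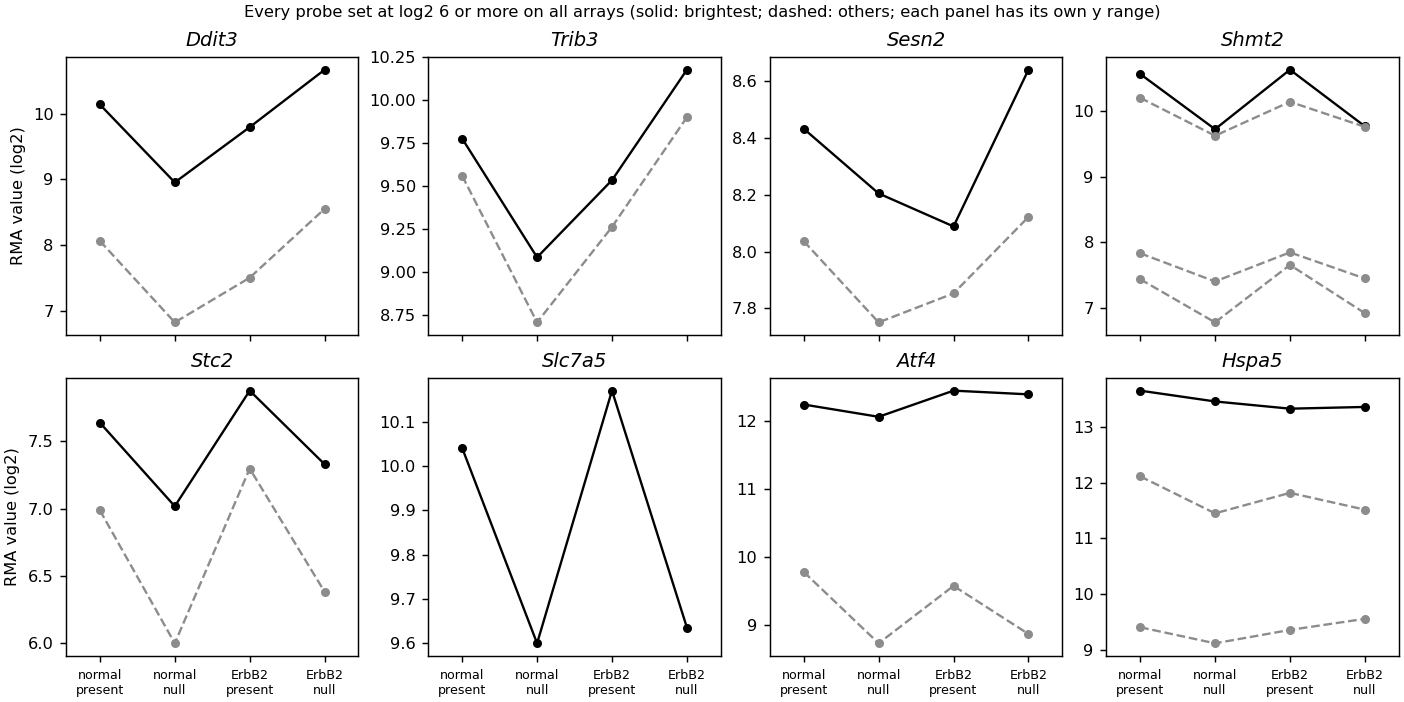
Log2 level (y axis, own range in each panel) of every probe set at log2 6 or more for 8 members on the 4 arrays (x axis); the solid line is the brightest probe set, dashed lines are the others, and lines only join the points of 1 probe set. The probe sets of *Ddit3*, *Trib3*, *Stc2* and *Shmt2* share a direction in both *Ets2* comparisons, those of *Shmt2* with unequal sizes. Those of *Atf4* differ more in size, and those of *Hspa5* differ in size and, in *ErbB2* fibroblasts, in sign.

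Other genes that answer the same signals were taken from lists of related functions. Of 17 further Atf4 targets 15 had a value, with median log2 differences of -0.28 in normal and 0.02 in *ErbB2* fibroblasts with loss of *Ets2*. In normal fibroblasts 3 were lower by more than 1.5-fold and 0 higher, namely *Ddit4*, *Aldh18a1* (-0.71) and *Gadd45a* (-0.66). *Ddit4*, an inhibitor of mTORC1 also induced by hypoxia, had levels of 10.22, 8.95, 9.36 and 10.17 and so resembled *Ddit3*, with differences of -1.28 and 0.81. *Atf3*, a transcription factor induced by many stresses, had 7.05, 7.23, 8.25 and 6.70 and differed by -1.55 in *ErbB2* fibroblasts, opposite to *Ddit3*. *Fgf21*, a secreted hormone, had 6.66, 6.66, 8.39 and 7.27 and was likewise highest in *ErbB2* *Ets2* present fibroblasts. Between *ErbB2* and normal fibroblasts, *Fgf21* (1.73) and *Atf3* (1.20) were higher and *Ddit4* (-0.86) lower with *Ets2*, and *Ddit4* (1.22), *Gadd45a* (1.10) and *Cth* (0.68) were the highest of 4 past 1.5-fold without it. The targets of Atf4 thus included genes that differed in opposite directions in *ErbB2* fibroblasts.

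Of 9 amino acid transporters, 0 passed 1.5-fold in normal fibroblasts (median -0.23), and in *ErbB2* fibroblasts *Slc38a1*, a glutamine transporter, was higher (0.72) and *Slc7a1*, which carries cationic amino acids, lower (-0.70). *Slc38a1* (0.76) and *Slc7a3* (0.64) were also higher in *ErbB2* than in normal *Ets2* null fibroblasts. The 20 tRNA synthetases and related genes measured had medians of -0.17 and -0.05, and 19 of 20 were lower in normal *Ets2* null fibroblasts. None passed 1.5-fold in a comparison, and *Nars* was the farthest from 0, at -0.42 in *ErbB2* fibroblasts. The 13 stress sensors had medians of -0.20 and -0.01, with *Creb3* farthest from 0, at 0.49 between *ErbB2* and normal fibroblasts with *Ets2*. A small shift down in normal *Ets2* null fibroblasts was thus shared by lists beyond the 35 genes.

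The lists of the secretory pathway gave small differences as well. The 20 other ER folding genes had medians of -0.11 and -0.17, and *Fkbp11* (-0.65) and *Pdia5* (-0.59) were lower by more than 1.5-fold with loss of *Ets2* in *ErbB2* fibroblasts. The 13 other genes of ER-associated degradation had medians of 0.03 and 0.02, with *Derl1* farthest from 0 at 0.57 between *ErbB2* and normal *Ets2* null fibroblasts. The 19 genes of entry into and export from the ER had medians of -0.05 and -0.09, with *Spcs3* farthest at -0.54 in *ErbB2* fibroblasts. All 11 collagen folding genes were lower in normal *Ets2* null fibroblasts, with a median of -0.23, and *Plod1*, a collagen lysyl hydroxylase, was farthest from 0 at -0.53 in *ErbB2* fibroblasts.

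Heat shock proteins outside the ER had another pattern. Of 10 measured, *Hspa1b* and *Hspb1* were higher by more than 1.5-fold with loss of *Ets2* in normal fibroblasts (0.73 and 0.69), and *Hspa1b*, *Hspb1* and *Hspa1a* were lower in *ErbB2* fibroblasts (-1.22, -0.64 and -0.59), though *Hspa1a* was below log2 6 on all arrays. *Hspa1b*, the inducible Hsp70 of the cytosol, had levels of 8.57, 9.29, 9.48 and 8.25. It was lowest where *Ddit3* was highest. Between *ErbB2* and normal fibroblasts, *Hspa1b* (0.91) and *Hspa1a* (0.81) were higher with *Ets2*, and *Hspa1b* (-1.04) and *Hspb1* (-1.02) were lower without it. The 8 mitochondrial stress genes had medians of -0.24 and 0.08, and *Lonp1*, a mitochondrial protease, was higher by more than 1.5-fold between *ErbB2* and normal *Ets2* null fibroblasts (0.63).

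**Figure D5:**
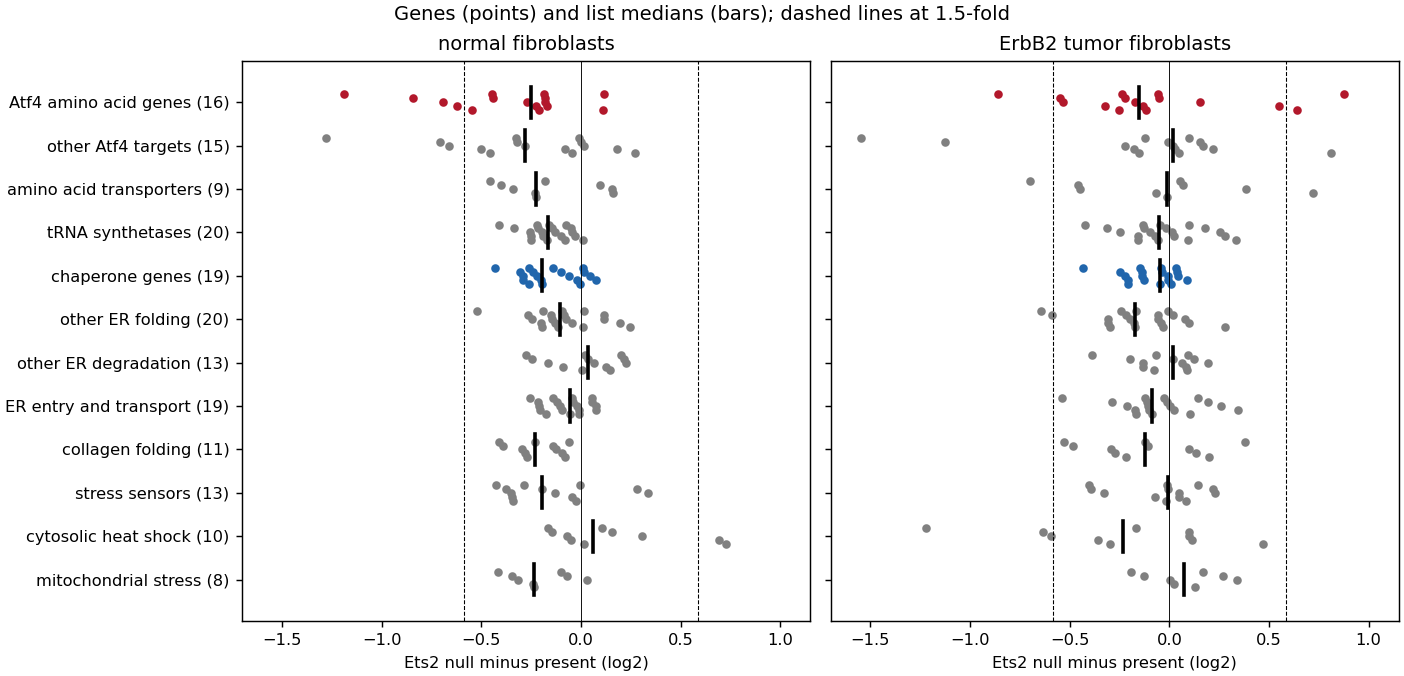
Log2 difference with loss of *Ets2* (x axis) in normal (left) and *ErbB2* tumor fibroblasts (right) for the genes of 12 lists, with the number measured in brackets; each point is 1 gene, black bars are list medians and dashed lines mark 1.5-fold. The medians in normal fibroblasts run from -0.28 for the other Atf4 targets to 0.06 for the cytosolic heat shock genes.

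Markers of other cell types moved between the same arrays, and their part in the differences of the stress genes was not tested. The summed level of 9 epithelial markers, as a log2 value, was 10.1, 11.6, 11.3 and 9.54 in the order of arrays used above, with a median difference of 1.68 in normal and -2.23 in *ErbB2* fibroblasts with loss of *Ets2*. That is highest where *Ddit3* and *Trib3* were lowest, and lowest where they were highest. The muscle sum given below had its highest and lowest values on the same arrays. In normal fibroblasts 8 of the 9 epithelial markers were higher without *Ets2*, and *Epcam* was lower (-0.31) on the probe set read here. The paper, however, lists *Epcam* as higher without *Ets2* in normal fibroblasts of this age, from another probe set. The sign of *Epcam* thus depends on the probe set. *Cdh1*, the cadherin that defines epithelium, was below log2 6 on all arrays. The summed level of 10 macrophage markers was 13.2, 13.0, 14.1 and 12.7, and 9 of 10 were lower by more than 1.5-fold with loss of *Ets2* in *ErbB2* fibroblasts. The 10 fibroblast markers summed to 16.4, 16.2, 16.5 and 16.4, though 5 of 10 were lower by more than 1.5-fold in normal *Ets2* null fibroblasts. Muscle markers summed to 11.0, 12.0, 11.3 and 9.97 (*Myod1*, *Tnnt1* and *Tnnt3* below log2 6 on all arrays). Of these 7 markers 6 were lower in normal *Ets2* null fibroblasts (median -0.75), and only *Acta1* was higher there (1.55). With loss of *Ets2* in *ErbB2* fibroblasts all 7 were lower by more than 1.5-fold (median -1.22). Endothelial markers summed to 9.54, 8.77, 9.17 and 8.64, and cell cycle genes to 13.2, 13.1, 13.6 and 13.1. All 9 cell cycle genes were lower with loss of *Ets2* in *ErbB2* fibroblasts (median -0.56). Of these, 3 passed 1.5-fold, beside 5.64% of all genes. All 9 were also higher in *ErbB2* than in normal fibroblasts with *Ets2* (median 0.37). Of the 6 plasma cell markers, a cell type rich in ER chaperones, *Jchain*, *Cd79a*, *Mzb1* and *Igk* were below log2 6 on all arrays. The spike-in controls added at hybridisation had a median of 9.84 on the *ErbB2* *Ets2* present array and of 10.3 to 10.5 on the others, and what this adds to the differences was not tested.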

How the data were processed

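The authors deposited 1 table of log2 values made with RMA, which corrects background, normalizes the arrays to 1 distribution and summarises the probes of each set, so a change common to most genes would not be seen. Its version is not given in the sources used. Names came from the platform annotation: of 45101 probe sets 34958 had 1 symbol, 932 several and 9211 none. Each gene was read from its singly named probe set with the highest average. Differences of log2 values were computed with pandas 2.3.3 and numpy 2.4.6 in Python 3.11.15, and plotted with matplotlib 3.10.9. With 1 array per genotype there is no test, and a size of 1.5-fold was used. The members, lists and motifs were chosen with earlier results of these data known, and the 3111 genes at log2 9 or more were set beside them after the values were seen. Named genes were all members and, of each other list, up to 3 genes past 1.5-fold in each direction or the 1 farthest from 0. The steps were tested on simulated data. Alternatives were median centring, quantile and loess normalization (statsmodels 0.14.6, span 0.4), a floor of log2 6, other probe sets, means, shorter lists, and 2-fold and 4-fold sizes. A motif search in bases before the start was added after the data were seen. Of 241 genes in all lists 11 found no probe set.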

Additional observations from a re-analysis of the deposited data

Results flagged for a closer look

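*Ddit3* and *Trib3* drew attention because loss of *Ets2* went with a lower level in normal and a higher level in *ErbB2* fibroblasts, each by more than 1.5-fold. The *ErbB2* difference minus the normal difference was 2.06 for *Ddit3* and 1.33 for *Trib3* on the log2 scale. Each difference rests on 1 array per genotype, and the difference between them was not tested.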

How the results depend on the processing

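With 1 array per genotype no array could be left out. No paired analysis was possible because each group has a single array. *Ddit3* and *Trib3* stayed beyond 1.5-fold under all 6 alternatives of probe set and normalization in the 3 comparisons in which they passed, *Shmt2* and *Stc2* under 5 of 6. Of the medians and their differences 100 values moved by less than 0.1, 7 by more, and 1 beyond 0.1 reversed. With means in place of medians, the amino acid genes gave -0.37 in normal fibroblasts with loss of *Ets2* and 0.32 between *ErbB2* and normal *Ets2* null fibroblasts, and amino acid minus chaperone genes gave -0.22, 0.015 (*ErbB2* fibroblasts, where the sign reversed) and 0.37. That last measure was -0.18 in normal fibroblasts with the mean of all probe sets, 0.0019 without genes known to answer to both arms (-0.05 as reported), and -0.00118 in *ErbB2* fibroblasts without probe sets marked for cross-hybridisation. Quantile normalization brought the amino acid median in *ErbB2* fibroblasts to -0.035. Members lower in normal *Ets2* null fibroblasts numbered 1 at 2-fold and 0 at 4-fold. In *ErbB2* fibroblasts, those higher numbered 0 at 2-fold and 0 at 4-fold. Those lower numbered 2 with the mean of probe sets, 2 with median centring, 0 without probe sets marked for cross-hybridisation, 0 at 2-fold and 0 at 4-fold. Those higher between *ErbB2* and normal *Ets2* null fibroblasts numbered 0 at 4-fold. Before the start alone, the ER stress element II lay in 1 chaperone promoter and the C/EBP-ATF element in 4 amino acid promoters. Precision is limited by the number of arrays, and no difference could be set against a spread between replicates. The causes of these shifts were not tested.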
